A study of Homo sapiens with 12 samples.

Results

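The BCL2 family decides whether the mitochondrial outer membrane of a cell stays closed or is opened, which commits the cell to apoptosis. Its proteins are of several kinds: members that restrain the process, effectors that form the pore, and BH3-only proteins that either switch the effectors on or block the restraining members. DNA damage, growth factor loss and stress kinases are known to act on the family in part through the amounts of the BH3-only proteins. The 10 family genes described here are BCL2, BCL2L1 (BCL-XL) and MCL1, which restrain apoptosis, BAX and BAK1, which are the effectors, and BCL2L11 (BIM), BBC3 (PUMA), PMAIP1 (NOXA), BID and BMF, which are BH3-only. They were taken by their Ensembl identifiers, whatever their values, and all 10 were among the 17013 genes of the deposited table.

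The mRNA of HCC1806 cells, a human triple-negative breast cancer line, was sequenced after silencing of MLK4, a mixed-lineage kinase encoded by MAP3K21, and treatment with doxorubicin, a topoisomerase II poison used as a chemotherapeutic. The study asked how MLK4 bears on the response of such cells to chemotherapy. Cells received a non-targeting control siRNA (siNT) or a pool of 4 siRNAs against MLK4 (siMLK4), and then the vehicle, given as DMSO, or 1 µM doxorubicin for 24 h. The labels give no treatment time for the vehicle, and the library titles name different time points for vehicle and doxorubicin. The study's methods describe the controls as left untreated. Whether both were harvested at the same time is not given, and a difference in culture time could not be told apart from the drug. Each of the 4 groups held 3 libraries from transfections made in triplicate, so the p-values measure the spread between these samples, which may be technical. All libraries come from the same cell line, and the separate siRNAs of the pool were not sequenced one by one. Between 16759025 and 19302248 reads were assigned to genes per library.

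The siRNAs of the pool are shown because they define the comparison. Each sense strand is written 5′ to 3′, with a UU overhang at its end, and capitals mark the bases that pair with bases 2 to 8 of the antisense strand, the seed that can also bind other mRNAs.
siMLK4 1, sense strand of the pool, which pairs with the seed at CAGAGAG: ggaaagaugcuCAGAGAGauu
siMLK4 2, sense strand of the pool, which pairs with the seed at AAGGUAA: aggagaagcccAAGGUAAauu
siMLK4 3, sense strand of the pool, which pairs with the seed at GAGGGAA: agaagaaacgaGAGGGAAuuu
siMLK4 4, sense strand of the pool, which pairs with the seed at CAAAGAA: agaacagauugCAAAGAAauu
The first 19 bases of each siRNA were found in 2 of the 3 annotated MAP3K21 transcripts. In the annotated 3′UTRs of the family, the capital word of siMLK4 1 occurred in BCL2 and BBC3, that of siMLK4 2 in BCL2, that of siMLK4 3 in BCL2, BCL2L11 and BMF, and that of siMLK4 4 in BCL2 and BMF. The other 6 members held none of the 4 words. At least 1 word was present in 58.2% of the 13587 table genes with an annotated 3′UTR, beside 4 of the 10 family genes. A word is a match of letters, and binding was not measured.

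MAP3K21 itself checks the siRNA labels. Its normalized reads were 553.1, 669.6 and 673.6 in siNT vehicle and 103.2, 94.66 and 88.65 in siMLK4 vehicle. With doxorubicin it stood at 757.6, 856.1 and 771.6 in siNT cells and at 112.8, 138.4 and 94.35 in siMLK4 cells. Normalized reads are the assigned reads of a gene divided by the size factor of its library. The siMLK4 libraries held 15.1% (vehicle) and 14.5% (doxorubicin) of the siNT mean, with no overlap between the groups (limma, Benjamini-Hochberg adjusted p = 9.7e-08 and 1.1e-07). MAP3K21 also rose with doxorubicin in siNT cells, with a log2 fold change of 0.31 ± 0.12 (SE) and an adjusted p of 0.042.

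The labelled cell type was checked against markers. All 9 epithelial markers of the list used were present in every library. EPCAM, an epithelial adhesion molecule, lay between 7534 and 17069 normalized reads, and CDH1, E-cadherin, between 3014 and 6436. The basal keratins KRT5, KRT6A, KRT14 and KRT17 ranged from 5954 to 33618, from 2431 to 15467, from 841.9 to 6932 and from 2034 to 4794. The luminal keratins KRT8 and KRT18 ranged from 15158 to 33086 and from 4464 to 23689, and TP63, a basal transcription factor, from 1009 to 6590. The basal markers moved with the groups and not all in 1 direction. In vehicle, knock-down went with higher KRT5, by 0.64 log2 units, and lower KRT6A (-1.19), KRT14 (-1.05), KRT17 (-0.66), KRT18 (-0.58) and EPCAM (-0.62), all past the test (limma, highest adjusted p = 0.022). With doxorubicin KRT5 fell by 1.24 in siNT cells and by 2.20 in siMLK4 cells, and its interaction of -0.96 ± 0.22 passed the test (limma, adjusted p = 0.0471). In siNT cells TP63 (-1.60), KRT6A (-1.36), KRT14 (-1.26) and KRT18 (-1.18) fell too, KRT8 rose by 0.44 (adjusted p = 0.04) and KRT17 stood at -0.01. Knock-down with doxorubicin went with lower KRT14 (-1.26), KRT6A (-1.03), KRT17 (-0.82), KRT18 (-0.69), KRT8 (-0.66) and EPCAM (-0.63), at a highest adjusted p of 0.012. KRT5 was at -0.32 there (adjusted p = 0.14). ESR1, the oestrogen receptor, lay between 35.99 and 148.5, and PGR, the progesterone receptor, was at 0 in all 6 vehicle libraries and between 7.258 and 18.46 in the doxorubicin libraries. ERBB2 was at 1272 to 2027 normalized reads. Of the markers of other cell types, PECAM1 was not in the table, PTPRC of leukocytes ranged from 0 to 21.23, and COL1A1 of fibroblasts from 254.5 to 577.3. PTPRC lay between 11.87 and 21.23 in the doxorubicin libraries and between 0 and 7.858 in the vehicle libraries, and COL1A1 was higher in siMLK4 than in siNT cells by a log2 fold change of 0.78 ± 0.12 in vehicle (limma, adjusted p = 0.00041). The number of table genes with no read also moved with the drug, from 200 to 354 per vehicle library to 17 to 42 per doxorubicin library. The part of these differences in the family's values was not tested.

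Of the 12 libraries, 2 of the vehicle groups lay farthest from their own group. Over 11057 genes, siNT vehicle replicate 1 and siMLK4 vehicle replicate 3 lay 0.33 and 0.36 log2 units (root mean square) from the mean of the other libraries of their groups. The other vehicle libraries lay at 0.16 to 0.30 and those of the doxorubicin groups at 0.09 to 0.25, so the ranges overlapped. ATF4, a transcription factor of the amino acid and endoplasmic reticulum stress response, was at 16688, 8786 and 11666 normalized reads in siNT vehicle replicates 1 to 3, and at 6489, 6760 and 12239 in those of siMLK4 vehicle. Calls of named genes that were lost without 1 of these 2 libraries are given below with and without it, and for genes outside the family that check was chosen after seeing the data.

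The 10 mRNAs differed widely in abundance. Per kilobase of annotated exon, and averaged over all 12 libraries, BCL2L1 had 982.1 normalized reads and MCL1 808.7, followed by PMAIP1 with 498.2, BAX with 494.7, BAK1 with 300, BID with 218.7, BMF with 124, BCL2L11 with 91.11, BBC3 with 16.02 and BCL2 with 14.06. Among all table genes, BCL2L1 lay at percentile 95.9 on this scale and BCL2 at percentile 25. Of the neighbours in this order, PMAIP1 and BAX, BAK1 and BID, BID and BMF, BMF and BCL2L11, and BBC3 and BCL2 changed places between groups, with PMAIP1 below BAX in vehicle (340 ± 120 against 507 ± 108 in siNT cells, SD, n = 3) and above it with doxorubicin (784 ± 26.4 against 540 ± 32.5). BMF stood far below BID in siNT vehicle (21.4 ± 3.11 against 288 ± 36.2, SD, n = 3) and above it in siMLK4 doxorubicin (268 ± 58.6 against 150 ± 5.85).

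**Figure D1:**
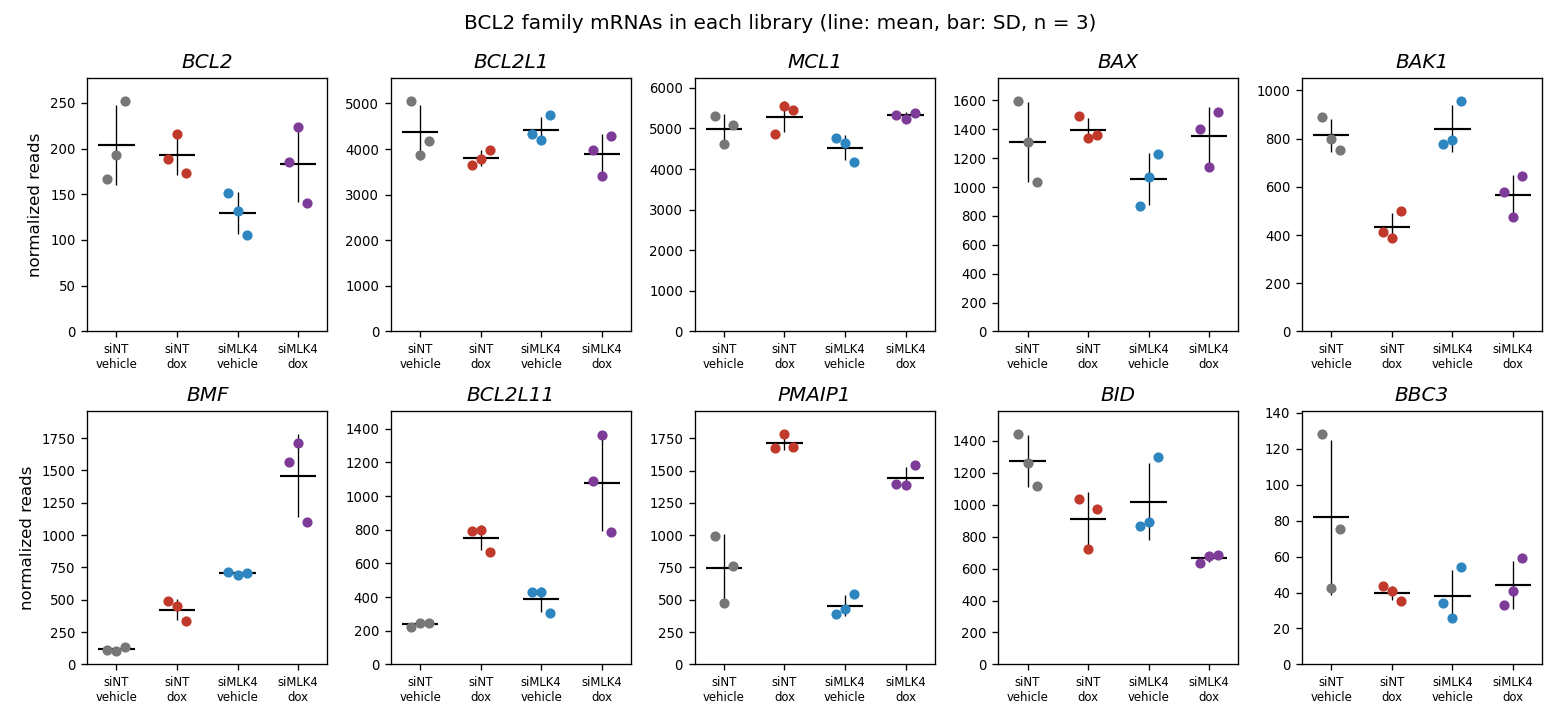
Normalized reads of each of the 10 genes in every library, with the group on the horizontal axis, points for the 3 libraries, a line at their mean and a bar of 1 SD. BMF steps up across the groups from 103.8 to 135.8 in siNT vehicle to 1101 to 1714 in siMLK4 doxorubicin, while BCL2L1 and MCL1 keep to narrow bands.

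Doxorubicin raised 3 BH3-only mRNAs in siNT cells, BMF, BCL2L11 and PMAIP1, and lowered BAK1, BID and BBC3. The same 3 genes rose, and BAK1 and BID fell, when the drug was given to MLK4-depleted cells. None of the restraining members BCL2, BCL2L1 and MCL1 passed the test in either siRNA background. A gene is said here to rise or fall when its adjusted p was under 0.05 over all 17013 genes. By that rule 29.6% of all genes rose and 27.7% fell with doxorubicin in siNT cells, and 30.2% rose and 27.7% fell in siMLK4 cells, so that 3 of 10 members up and 3 or 2 of 10 down lie near the share of genes at large. Under scaling by library totals the split in siNT cells was 4 up and 1 down in place of 3 and 3, as MCL1 gained a call while BID (-0.24, adjusted p = 0.2) and BBC3 lost theirs, and in siMLK4 cells it was 6 up and 2 down. Under the stricter rule of the study, which asks for a log2 change beyond 0.75 in either direction at an adjusted p below 0.01, 4 members passed in siNT cells beside 22.7% of all genes, and 3 in siMLK4 cells beside 23.2%.

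Log2 fold changes are differences of the deposited variance-stabilised values, which shrink the change of genes with few reads, so the ratio of the mean normalized reads is given too. In this scale the median gene moved by 0.00 with doxorubicin in siNT cells. If libraries are scaled by their totals in place of the size factors of the authors, the median of all genes moves up by 0.24 in that comparison, by 0.19 for doxorubicin in siMLK4 cells, by 0.14 for MLK4 knock-down in vehicle and by 0.09 for knock-down with doxorubicin. All changes below are relative to the typical gene, and in such bulk samples fewer cells of a kind and less RNA per cell cannot be told apart.

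BMF encodes a BH3-only protein held on the myosin V motor through dynein light chain 2 until it is released to block the restraining members. It was at 110.4, 103.8 and 135.8 normalized reads in siNT vehicle and at 487.3, 447.9 and 332.6 after doxorubicin. All doxorubicin libraries lay above all vehicle libraries. The mean rose 3.62-fold, with a log2 fold change of 1.50 ± 0.16 (SE, limma, adjusted p = 3.5e-06). In MLK4-depleted cells BMF went from 715.4, 688.5 and 708.1 to 1562, 1714 and 1101 normalized reads, 2.07-fold, with a log2 fold change of 0.98 ± 0.16 (limma, adjusted p = 0.00014).

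BCL2L11 encodes BIM, which binds all restraining members and can activate BAX and BAK directly. It was at 223.1, 248.1 and 244.7 normalized reads in siNT vehicle and at 793.6, 800.1 and 665.1 with doxorubicin, without overlap. This is a ratio of 3.15 and a log2 fold change of 1.47 ± 0.17 (limma, adjusted p = 7.4e-06). In siMLK4 cells it was at 429.8, 427.5 and 302.7 in vehicle and at 1087, 1362 and 787.5 with doxorubicin. The groups again stood apart, with a ratio of 2.79 and a log2 fold change of 1.35 ± 0.17 (limma, adjusted p = 1.5e-05). The exons of BCL2L11 overlap those of MIR4435-2HG on the opposite strand over 727 bases. MIR4435-2HG moved the other way, from 265.4, 316.6 and 298.6 normalized reads in siNT vehicle to 103.4, 112 and 143 with doxorubicin, and reads were assigned by strand per the study's methods.

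PMAIP1 encodes NOXA, which binds mainly MCL1 and speeds its breakdown. It was at 996.9, 472.4 and 761.1 normalized reads in siNT vehicle and at 1676, 1780 and 1686 with doxorubicin. The vehicle libraries were spread more widely than the treated ones, and none reached the doxorubicin group. The ratio was 2.31 and the log2 fold change 1.21 ± 0.19 (limma, adjusted p = 0.00011). In siMLK4 cells it rose from 390.7, 430.4 and 546 to 1397, 1392 and 1541, with a ratio of 3.17 and a log2 fold change of 1.57 ± 0.19 (limma, adjusted p = 1.1e-05).

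These 3 genes all rose with the drug in both siRNA backgrounds, so the starts of their RefSeq transcripts are shown. Over the 12 libraries the Pearson r was 0.79 for BCL2L11 and BMF, 0.69 for BCL2L11 and PMAIP1 and 0.24 for PMAIP1 and BMF. Each stretch runs 5′ to 3′ on the strand of the gene from 250 bases before to 50 bases after the start, in build GRCh38.p14, with matches to searched words in capitals.
BCL2L11, chr2:111120664-111120963, plus strand: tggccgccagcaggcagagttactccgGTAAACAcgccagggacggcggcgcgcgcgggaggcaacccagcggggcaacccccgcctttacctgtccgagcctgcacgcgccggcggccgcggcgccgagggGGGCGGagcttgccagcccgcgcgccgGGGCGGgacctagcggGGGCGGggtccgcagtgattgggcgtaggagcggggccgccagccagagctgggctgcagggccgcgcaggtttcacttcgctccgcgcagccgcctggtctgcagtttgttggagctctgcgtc
BMF, chr15:40108830-40109129, minus strand: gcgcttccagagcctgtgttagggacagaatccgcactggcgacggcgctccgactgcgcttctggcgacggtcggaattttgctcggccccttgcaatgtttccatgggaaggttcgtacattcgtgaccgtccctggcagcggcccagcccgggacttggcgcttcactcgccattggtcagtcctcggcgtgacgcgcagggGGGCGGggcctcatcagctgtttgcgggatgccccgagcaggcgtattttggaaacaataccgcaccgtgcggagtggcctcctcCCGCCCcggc
PMAIP1, chr18:59899746-59900045, plus strand: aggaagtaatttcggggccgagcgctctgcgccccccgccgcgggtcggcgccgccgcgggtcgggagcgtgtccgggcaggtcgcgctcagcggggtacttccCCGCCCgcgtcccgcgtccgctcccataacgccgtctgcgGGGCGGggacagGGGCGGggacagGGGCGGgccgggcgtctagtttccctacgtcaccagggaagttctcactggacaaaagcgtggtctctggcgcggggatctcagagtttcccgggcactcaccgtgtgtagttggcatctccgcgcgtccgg
The words searched on both strands were GTAAACA (FOXO), TGACTCA (AP-1), TGACGTCA (CRE), TTTCCCGC (E2F), TGATGCAA (ATF4) and GGGCGG (GC box). The FOXO word stood in the BCL2L11 stretch, 223 bases before the start and on the strand of the gene, and is found in 3.42% of 35116 such stretches. The GC box occurred 3 times in BCL2L11, 2 times in BMF and 4 times in PMAIP1, and 45% of all stretches hold it. No capital run overlaps another in the stretches printed. A second BMF start in RefSeq, at chr15:40106917-40107216, held none of the words. Of the 9 members matched in the promoter table, BBC3 alone held the AP-1 word, which 4.95% of all stretches contain, and no member held the CRE, E2F or ATF4 word. The matches describe letters only, and factor binding was not measured.

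BAK1, 1 of the 2 pore-forming effectors, fell with doxorubicin. It was at 890.1, 797.3 and 753.3 normalized reads in siNT vehicle and at 412.5, 385.8 and 500.9 with the drug, and every treated library lay below every vehicle library. The treated mean was 53.2% of the vehicle mean, with a log2 fold change of -0.84 ± 0.13 (limma, adjusted p = 0.0001). In siMLK4 cells BAK1 went from 776.5, 795.1 and 954.6 to 578.3, 475.3 and 643.2, or 67.2% of vehicle, with a log2 fold change of -0.54 ± 0.13 (limma, adjusted p = 0.0031). Of the 50-base stretches of BAK1 transcripts, 12.5% are also found in the pseudogene BAK1P1, which is not in the table, so reads from the 2 copies may not be fully separated.

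BAX, the other effector, did not pass the test with doxorubicin. It ranged from 1035 to 1593 normalized reads in siNT vehicle and from 1339 to 1493 with doxorubicin, and the groups overlapped. The log2 fold change was 0.11 ± 0.16 in siNT cells (limma, adjusted p = 0.59) and 0.35 ± 0.16 in siMLK4 cells (limma, adjusted p = 0.075). The second of these passed the test under scaling by library totals, at 0.53 with an adjusted p of 0.0093, and without siMLK4 vehicle replicate 3, at 0.46 with an adjusted p of 0.029. It also passed in 3 other fits that left out 1 library (adjusted p from 0.038 to 0.0474).

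BID links the death receptor arm to mitochondria once caspase-8 has cut it. Its mRNA was at 1440, 1261 and 1120 normalized reads in siNT vehicle and at 1036, 719.7 and 975.4 with doxorubicin, without overlap. The treated mean was 71.5% of vehicle, with a log2 fold change of -0.47 ± 0.16 (limma, adjusted p = 0.021). Without siNT vehicle replicate 1 the value was -0.38 with an adjusted p of 0.077, and without siNT doxorubicin replicate 2 it was -0.32 with an adjusted p of 0.12. In siMLK4 cells BID went from 865.7, 890.8 and 1296 to 635.1, 677.1 and 682.3, with a log2 fold change of -0.55 ± 0.16 (limma, adjusted p = 0.0087).

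BBC3 encodes PUMA, a BH3-only protein that binds all restraining members. Its mRNA was low throughout, at 128, 42.57 and 75.22 normalized reads in siNT vehicle and at 43.37, 40.72 and 35.49 with doxorubicin. The groups overlapped, since vehicle replicate 2 lay within the treated range. The log2 fold change was -0.55 ± 0.21 (limma, adjusted p = 0.039), and without siNT vehicle replicate 1 it was -0.29 with an adjusted p of 0.2. The call was also lost under library totals (-0.40, adjusted p = 0.1), by limma-voom on the recovered reads (-0.87, adjusted p = 0.056), without siNT vehicle replicate 3 (-0.56, adjusted p = 0.07) and without any 1 of the siNT doxorubicin libraries (adjusted p from 0.065 to 0.098). Without siNT vehicle replicate 2 the value was -0.80 with an adjusted p of 0.0042. In siMLK4 cells BBC3 was at 34.07, 25.91 and 54.06 in vehicle and at 33.07, 40.86 and 58.97 with doxorubicin, with a log2 fold change of 0.12 ± 0.21 (limma, adjusted p = 0.64).

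Among the restraining members, BCL2L1 was at 5046, 3881 and 4183 normalized reads in siNT vehicle and at 3657, 3772 and 3983 with doxorubicin. Its log2 fold change was -0.19 ± 0.12 in each siRNA background (limma, adjusted p = 0.19 in both) and changed sign to 0.05 in siNT cells when scaled by library totals. MCL1, a short-lived protein on which many breast cancer lines depend, was at 5297, 4605 and 5075 in siNT vehicle and at 4851, 5556 and 5451 with doxorubicin, a log2 fold change of 0.08 ± 0.10 (limma, adjusted p = 0.51). In siMLK4 cells MCL1 was at 4766, 4649 and 4168 in vehicle and at 5340, 5233 and 5389 with doxorubicin, and although these groups did not overlap, the log2 fold change of 0.23 ± 0.10 missed the threshold (limma, adjusted p = 0.062). Under scaling by library totals MCL1 rose in both backgrounds, by 0.32 (adjusted p = 0.015) and 0.42 (adjusted p = 0.0027). BCL2 was at 166.7, 193.1 and 251.5 in siNT vehicle and at 188.3, 215.8 and 173.4 with doxorubicin, a log2 fold change of -0.06 ± 0.16 (limma, adjusted p = 0.78) that turned to 0.14 under that scaling. In siMLK4 cells BCL2 was at 151.3, 131.5 and 105.9 in vehicle and at 185.7, 223.5 and 140.6 with doxorubicin, and the groups overlapped. The ratio was 1.41 and the log2 fold change of 0.38 ± 0.16 missed the threshold (limma, adjusted p = 0.057), which it passed under library totals at 0.52 (adjusted p = 0.014) and in 4 of the 12 fits that left out 1 library (0.38 to 0.51, adjusted p from 0.016 to 0.0461).

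**Figure D2:**
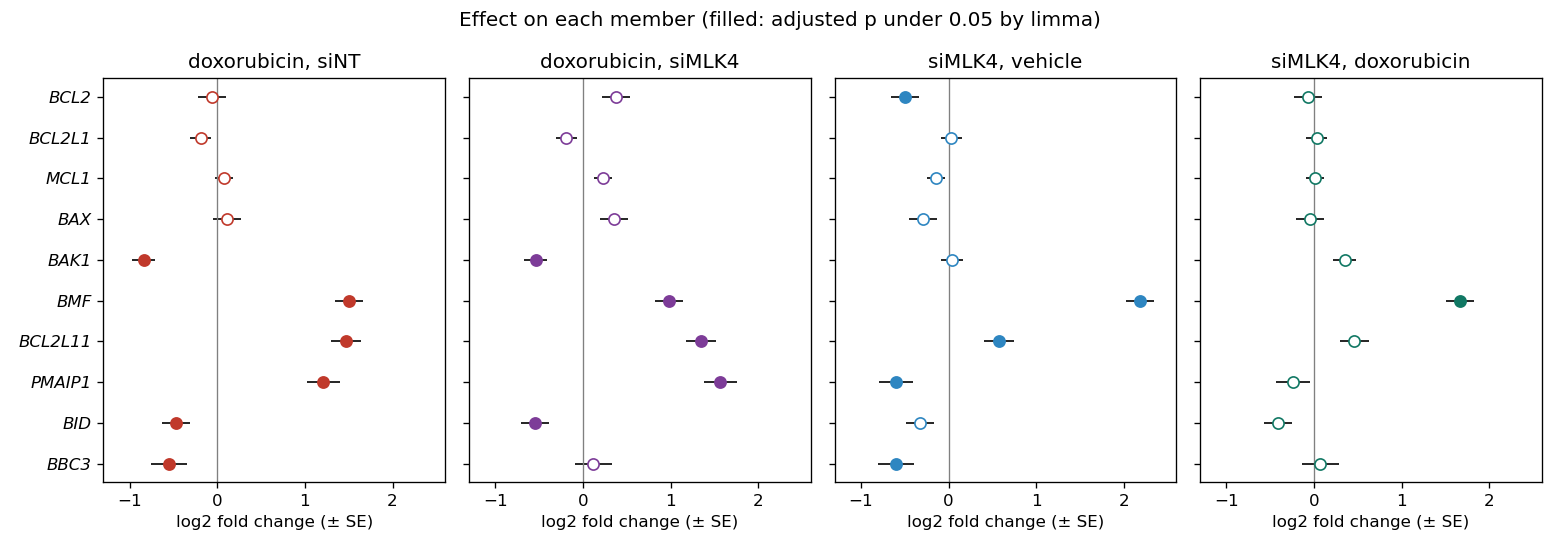
Log2 fold change of each gene (horizontal axis, with its SE from limma) in the 4 comparisons, doxorubicin against vehicle in siNT and in siMLK4 cells and siMLK4 against siNT in vehicle and with doxorubicin. Filled points passed an adjusted p of 0.05. BMF lies to the right in all 4 panels, from 0.98 to 2.19, and is the only filled point in the last.

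MLK4 knock-down by itself was accompanied by a 6.03-fold higher BMF mRNA. In vehicle, BCL2L11 was also higher in siMLK4 than in siNT cells, while BCL2, PMAIP1 and BBC3 were lower. With doxorubicin, BMF was the only member to pass the test. In vehicle 12.7% of all genes were higher and 13% lower in siMLK4 cells, beside 2 and 3 of the 10 members. With doxorubicin the shares were 12.7% higher and 12.1% lower, beside 1 and 0 members. Under the stricter rule BMF alone passed in each comparison, beside 5.65% of all genes in vehicle and 5.58% with doxorubicin.

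The 3 siMLK4 vehicle libraries held 715.4, 688.5 and 708.1 normalized BMF reads against 110.4, 103.8 and 135.8 in siNT vehicle. The log2 fold change was 2.19 ± 0.16 (limma, adjusted p = 7.6e-07). All 3 also lay above the siNT libraries with drug, which reached at most 487.3. With doxorubicin BMF was at 1562, 1714 and 1101 in siMLK4 cells against 487.3, 447.9 and 332.6 in siNT cells, a ratio of 3.45 and a log2 fold change of 1.66 ± 0.16 (limma, adjusted p = 1e-05). In the 12 fits that each left out 1 library, the change in vehicle stayed between 2.13 and 2.27 and the change with doxorubicin between 1.52 and 1.85, and BMF passed the test in each. BMF-AS1, which overlaps BMF on the opposite strand over 461 bases, is not in the table.

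BCL2L11 was at 429.8, 427.5 and 302.7 in siMLK4 vehicle, above the 223.1 to 248.1 of siNT vehicle, with a ratio of 1.62 and a log2 fold change of 0.58 ± 0.17 (limma, adjusted p = 0.022). The call was lost without siNT vehicle replicate 1 (0.54, adjusted p = 0.057), and also when siMLK4 vehicle replicate 1 (0.51, adjusted p = 0.072) or siMLK4 vehicle replicate 2 (0.51, adjusted p = 0.083) was left out. With doxorubicin the 2 siRNA groups overlapped, since 787.5 in siMLK4 replicate 3 lay below 800.1 in siNT replicate 2. The log2 fold change there was 0.46 ± 0.17 (limma, adjusted p = 0.062). With the replicate number as a block the same change had an adjusted p of 0.028, and without siMLK4 doxorubicin replicate 3 it was 0.66 with an adjusted p of 0.008.

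PMAIP1 was at 390.7, 430.4 and 546 in siMLK4 vehicle against 996.9, 472.4 and 761.1 in siNT vehicle, and the groups overlapped. The log2 fold change was -0.60 ± 0.19 (limma, adjusted p = 0.032), and without siNT vehicle replicate 1 it was -0.37 with an adjusted p of 0.13. The call was also lost under library totals (-0.47, adjusted p = 0.07), with only the 2 vehicle groups fitted (adjusted p = 0.14), and without siNT vehicle replicate 3 (-0.56, adjusted p = 0.082) or siMLK4 vehicle replicate 1 (-0.51, adjusted p = 0.1) or 2 (-0.57, adjusted p = 0.09). With doxorubicin the siMLK4 libraries lay below the siNT libraries, at 84.2% of their mean, but the change of -0.24 ± 0.19 missed the threshold (limma, adjusted p = 0.39). BBC3 was lower in siMLK4 vehicle by a log2 fold change of -0.60 ± 0.21 (limma, adjusted p = 0.0496), which became -0.35 with an adjusted p of 0.2 without siNT vehicle replicate 1. This borderline call was lost in 9 of the 12 fits that left out 1 library (adjusted p from 0.059 to 0.2), under library totals (-0.51, adjusted p = 0.077), by limma-voom (-1.02, adjusted p = 0.065), on log2 of normalized reads plus 1 (-1.01, adjusted p = 0.0511) and with only the 2 vehicle groups fitted (adjusted p = 0.15).

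BCL2 was at 151.3, 131.5 and 105.9 in siMLK4 vehicle, below all siNT vehicle libraries, at 63.6% of their mean. The log2 fold change was -0.50 ± 0.16 (limma, adjusted p = 0.033). The call was lost without siNT vehicle replicate 3 (-0.37, adjusted p = 0.13), without siMLK4 vehicle replicate 3 (-0.40, adjusted p = 0.11) and in 2 other fits that left out a vehicle library, as well as under library totals (-0.38, adjusted p = 0.1) and with only the 2 vehicle groups fitted (adjusted p = 0.076). With doxorubicin BCL2 was at 185.7, 223.5 and 140.6 in siMLK4 cells, within and around the siNT range, with a log2 fold change of -0.07 ± 0.16 (limma, adjusted p = 0.79). BCL2L1, MCL1, BAX and BAK1 showed log2 differences of 0.03, -0.14, -0.29 and 0.04 in vehicle, and BID one of -0.33, none past the test. Without siMLK4 vehicle replicate 3, at 1296 normalized reads against 865.7 and 890.8 in the other libraries of its group, BID was lower by -0.50 with an adjusted p of 0.023. With doxorubicin the values nearest to the threshold besides BCL2L11 were 0.35 ± 0.13 for BAK1 (limma, adjusted p = 0.069) and -0.41 ± 0.16 for BID (limma, adjusted p = 0.076). BID and BCL2L11 passed the test there when siMLK4 vehicle replicate 3 was left out of the shared fit, at adjusted p of 0.03 and 0.037. BID also passed with only the 2 doxorubicin groups fitted (adjusted p = 0.033) and without siNT doxorubicin replicate 2 (-0.56, adjusted p = 0.03). BAK1 passed under library totals (0.43, adjusted p = 0.021), without siNT doxorubicin replicate 3 (0.44, adjusted p = 0.0473) and without siMLK4 doxorubicin replicate 2 (0.46, adjusted p = 0.037), and BCL2L11 under library totals (0.55, adjusted p = 0.037).

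Whether MLK4 knock-down altered the response to doxorubicin was tested as an interaction, the difference between the drug's log2 fold changes in siMLK4 and siNT cells. None of the 10 members passed, and the background was low, with 0.576% of all genes higher, 0.623% lower and 0.276% past the stricter rule. At an unadjusted p under 0.05, 2 members were past it, beside 2469 of 17013 genes. BMF had a value of -0.53 ± 0.23 (limma, adjusted p = 0.29), and BBC3 one of 0.67 ± 0.30 (limma, adjusted p = 0.31). The comparisons of drug and of knock-down share the siNT vehicle libraries. The combined state can be read as a ratio of siMLK4 doxorubicin to siNT vehicle. BMF reached 12.5 times the siNT vehicle mean, where the product of the 2 separate ratios is 21.9. BCL2L11 reached 4.52 times, where the product is 5.11, and PMAIP1 1.94 times, where the product is 1.41. The combined group did not overlap with siNT vehicle in these 3 genes, nor in BAK1 and BID, which stood at 0.695 and 0.522 of it. Between these 2 groups, 36% of all genes were higher in every library and 32.9% lower, beside 3 and 2 of the 10 members.

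Summed per kilobase of exon, the restraining members gave similar values in all 4 groups, and the BH3-only genes gave higher values with doxorubicin. The sum of BCL2, BCL2L1 and MCL1 was 1860 ± 195 normalized reads per kilobase (SD, n = 3) in siNT vehicle, 1771 ± 92.3 in siNT doxorubicin, 1793 ± 30.5 in siMLK4 vehicle and 1796 ± 115 in siMLK4 doxorubicin. The 5 BH3-only genes summed to 710.8 ± 154, 1192 ± 29.5, 637.2 ± 85 and 1252 ± 62.2 in the same order. BAX and BAK1 together gave 875.2 ± 139, 735.7 ± 38.5, 788.8 ± 111 and 779.1 ± 114. As a share of the family's summed level, BH3-only mRNA was 20.5% ± 2 in siNT vehicle, 32.2% ± 1.2 in siNT doxorubicin, 19.7% ± 1.3 in siMLK4 vehicle and 32.8% ± 3.1 in siMLK4 doxorubicin. These sums are descriptions without a test.

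**Figure D3:**
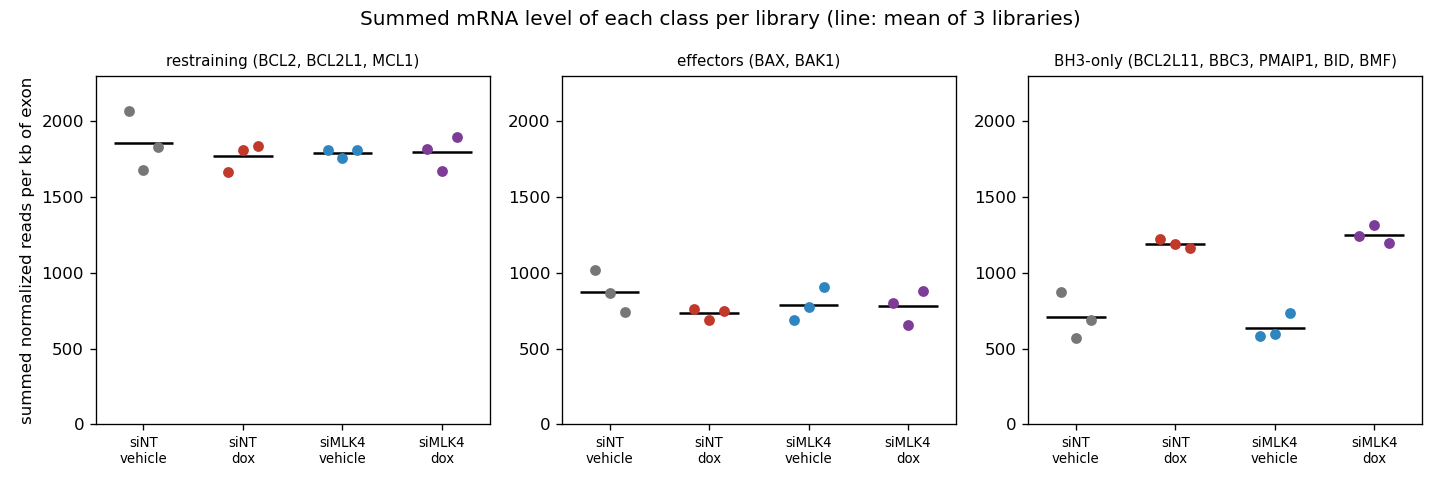
Summed normalized reads per kilobase of exon for the restraining, effector and BH3-only genes (vertical axis) in each of the 12 libraries, by group, with a line at the mean of 3. The BH3-only means are 1192 and 1252 with doxorubicin against 710.8 and 637.2 in vehicle, and the restraining means stay between 1771 and 1860.

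The siRNA groups had similar BH3-only sums but a different make-up. BMF made up 3.1% ± 0.69 (SD, n = 3) of the BH3-only level in siNT vehicle and 6.49% ± 1.1 in siNT doxorubicin, against 20.5% ± 2.5 and 21.3% ± 3.8 in the siMLK4 groups. PMAIP1 made up 46.9% ± 7.9 in siNT vehicle and 65.8% ± 2.9 in siNT doxorubicin, against 32.6% ± 1.6 and 52.9% ± 5.5 in MLK4-depleted cells. With doxorubicin the BID share went from 41.4% ± 7.5 to 17.3% ± 3.1 under siNT, and under siMLK4 it went from 35.8% ± 3.5 to 12% ± 0.75. BBC3 was at 1.05% to 3.46% in all groups.

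**Figure D4:**
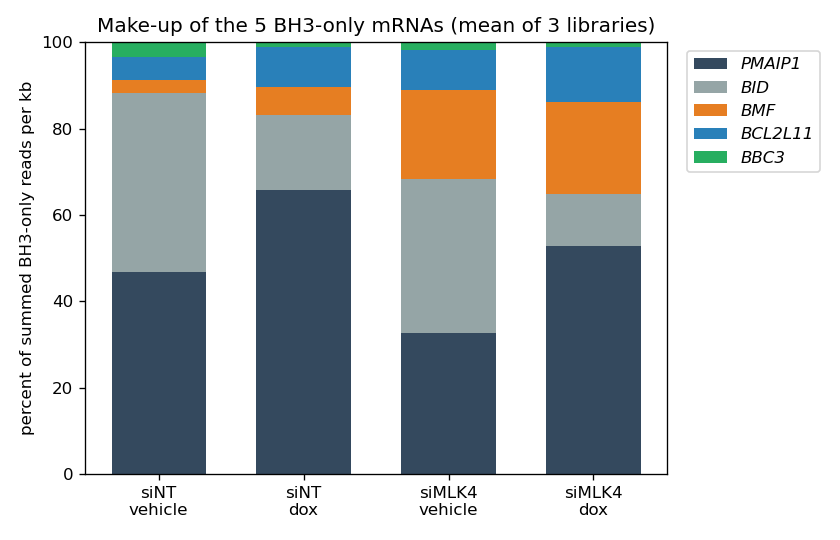
Mean share (vertical axis, percent, 3 libraries per group) of each BH3-only gene in the summed BH3-only reads per kilobase. The BMF segment is 3.1% and 6.49% in siNT cells and 20.5% and 21.3% in siMLK4 cells.

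Other BCL2 proteins were read from lists outside the 10. The counts in these lists stand beside the shares of all genes given above, 29.6% up and 27.7% down for doxorubicin in siNT cells, 30.2% and 27.7% in siMLK4 cells, and 12.7% up and 12.1% or 13% down for knock-down. BCL2L2 (BCL-W), a further restraining member, was at 1420, 979 and 1147 normalized reads in siNT vehicle, 504.8, 530.4 and 634.7 in siNT doxorubicin, 665.3, 648.7 and 729.8 in siMLK4 vehicle and 411.3, 364.4 and 505.3 in siMLK4 doxorubicin. It fell with the drug by 1.01 log2 units in siNT cells (limma, adjusted p = 4.3e-05) and by 0.62 in siMLK4 cells, and was lower by -0.74 after knock-down in vehicle (limma, adjusted p = 0.0021). BCL2A1 and BCL2L10 were not in the table. Of BOK, BAD, BIK and HRK, which promote apoptosis, 3 fell with doxorubicin in siNT cells, BAD by 0.92, BOK by 0.61 and BIK by 0.50 log2 units, and 1, BIK, in siMLK4 cells by 0.52. The BOK groups overlapped in siNT cells. HRK stood there at 0.28 with overlapping groups (limma, adjusted p = 0.071), and without siNT vehicle replicate 1 it rose by 0.41 (adjusted p = 0.012). In siMLK4 cells BAD stood at -0.52 without overlap and just missed the test (limma, adjusted p = 0.0543), which it passed without siNT vehicle replicate 1 (adjusted p = 0.026), and BOK stood at -0.28 (adjusted p = 0.16). Whether the backgrounds differed was tested as the interaction, which 0 of the 4 genes passed (limma, lowest adjusted p = 0.6), with 0 also at an unadjusted p under 0.05. BIK was also lower in siMLK4 cells with doxorubicin, at -0.41 ± 0.14 (limma, adjusted p = 0.043). Of 7 measured BCL2-like and BNIP genes, 4 fell with the drug in siNT cells, led by BNIP1 (-1.04), a membrane trafficking protein, and BNIP3L (-0.69), a mitophagy receptor. In siMLK4 cells 4 fell and 1 rose, BCL2L12, by 0.55, so in each background 4 of 7 fell where 27.7% of all genes did. BCL2L14 was higher after knock-down in vehicle, but at 13.02, 8.968 and 16.22 normalized reads against 2.348, 2.076 and 1.123.

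Downstream of the mitochondria, the list of 16 apoptosome, caspase and mitochondrial genes moved in both directions with doxorubicin. In siNT cells 5 rose and 6 fell, and in siMLK4 cells 6 rose and 6 fell, with medians of -0.08 and -0.11 against 0.00 and 0.02 for all genes and counts near the shares of all genes (29.6% to 30.2% up, 27.7% down). HTRA2, a mitochondrial protease that blocks inhibitors of apoptosis once released, rose by 1.05 in siNT and 0.91 in siMLK4 cells, and ENDOG, a mitochondrial nuclease, by 0.89 and 0.94. DFFB, the nuclease that cuts DNA in apoptosis, fell by 1.05 and 1.29, and VDAC1, the main channel of the outer membrane, by 0.92 in both. Knock-down changed 3 of the 16 in vehicle and 3 with doxorubicin. CYCS, cytochrome c, was lower in vehicle at -0.66 ± 0.12 (limma, adjusted p = 0.0014), VDAC2, which holds BAK at the membrane, at -0.50, and CASP6 was higher at 0.46. With doxorubicin DFFA was lower, at -0.56, and CASP6 higher at 0.42.

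Among 5 measured inhibitors of apoptosis, 0 rose and 1 fell with doxorubicin in each siRNA background, where 29.6% or 30.2% of all genes rose and 27.7% fell. XIAP, which blocks caspases directly, fell by 0.49 in siNT and 0.51 in siMLK4 cells. After knock-down 0 of the 5 were higher and 2 lower in vehicle, as with doxorubicin, beside 12.7% of all genes higher and 13% or 12.1% lower. BIRC2 and BIRC3, ubiquitin ligases of the NF-κB pathway, were lower after knock-down, BIRC2 at -0.32 in vehicle and -0.52 with doxorubicin, and BIRC3 at -0.57 and -0.49. The vehicle call of BIRC2 was lost without siNT vehicle replicate 1 (-0.31, adjusted p = 0.058) and without siMLK4 vehicle replicate 3 (-0.30, adjusted p = 0.055). Of 12 genes of the death receptor arm, 4 rose and 2 fell with the drug in siNT cells, and 5 rose and 3 fell in siMLK4 cells, where about 30.2% and 27.7% of all genes did. Without siMLK4 vehicle replicate 3 the latter counts were 3 and 2. CFLAR went there from 0.40 (limma, adjusted p = 0.024) to 0.28 (adjusted p = 0.098), TNFRSF10B from 0.38 (adjusted p = 0.027) to 0.33 (adjusted p = 0.075) and CRADD from -0.32 (adjusted p = 0.0464) to -0.27 (adjusted p = 0.13). Without siNT vehicle replicate 1 they were 5 and 2, as CRADD stayed at -0.32 with an adjusted p of 0.0507. TNFRSF10A, a receptor for TRAIL, was lower after knock-down by -1.01 ± 0.13 in vehicle (limma, adjusted p = 9.1e-05) and by -0.72 with doxorubicin, while TNFSF10, which encodes TRAIL, was higher by 1.00 ± 0.20 in vehicle (limma, adjusted p = 0.0028) and fell with doxorubicin by 0.57 in siNT cells, with overlapping groups (limma, adjusted p = 0.027), and by 1.15 in siMLK4 cells (adjusted p = 0.00026). RIPK1, a kinase of this arm, rose by 0.97 and 0.56 with the drug, and PIDD1, a caspase-2 activator, was higher after knock-down by 0.91 and 0.94. With knock-down, 2 of the 12 were higher and 2 lower in vehicle, and 1 higher and 4 lower with doxorubicin, where 12.7% of all genes were higher and 13% or 12.1% lower.

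Of 9 genes for proteins that bind or turn over BCL2 family proteins, 1 rose and 1 fell with the drug in siNT cells, and 0 rose and 1 fell in siMLK4 cells. Among all genes 29.6% or 30.2% rose and 27.7% fell. USP13, a deubiquitinase known to stabilise MCL1, fell by 0.93 in siNT and 0.59 in siMLK4 cells. DYNLL1, the light chain that holds BIM, rose by 0.31 in siNT cells (limma, adjusted p = 0.0467). Without siNT vehicle replicate 1 that value was 0.32 with an adjusted p of 0.068. After knock-down 1 of the 9 was higher and 0 lower in vehicle, as with doxorubicin, beside 12.7% of all genes higher and 13% or 12.1% lower. BTRC, a ubiquitin ligase subunit that marks BIM for breakdown, was higher after knock-down by 0.81 in vehicle and 0.88 with doxorubicin. DYNLL2, the light chain of BMF, was not past the test in any of the 4 comparisons, though without siMLK4 vehicle replicate 3 it was higher after knock-down in vehicle by 0.32 (adjusted p = 0.03).

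Of 14 transcription factors known to act on family genes, 5 rose and 3 fell with doxorubicin in each siRNA background, near the 29.6% or 30.2% up and 27.7% down of all genes. In siNT and siMLK4 cells TP63 fell by 1.60 and 1.58 log2 units and ATF4 by 1.48 and 0.83, while JUN rose by 0.82 and 1.60. DDIT3 rose by 1.72 in siMLK4 cells. In siNT cells it stood at 0.53 with overlapping groups (limma, adjusted p = 0.21), and without siNT vehicle replicate 1 at 0.87 with an adjusted p of 0.043. Knock-down lowered MYC, from 4380, 3354 and 4191 to 1446, 1723 and 1815 in vehicle (-1.23 ± 0.14, limma, adjusted p = 3.5e-05), and by -1.53 ± 0.14 with doxorubicin. JUN was lower after knock-down in vehicle by -0.97 and was the only gene of these lists with an interaction past the test, at 0.78 ± 0.17 (limma, adjusted p = 0.036). That call was lost without siNT vehicle replicate 1 (0.70, adjusted p = 0.075) and without siMLK4 vehicle replicate 3 (0.71, adjusted p = 0.056). DDIT3, which encodes CHOP, was lower after knock-down in vehicle by -1.09 ± 0.35 with overlapping groups (limma, adjusted p = 0.033). Without siNT vehicle replicate 1 this was -0.75 with an adjusted p of 0.13. Among doxorubicin-treated cells E2F1 was higher in siMLK4 than in siNT by 0.91. With the drug itself E2F1 rose by 0.80 in siNT and by 1.37 in siMLK4 cells.

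A further list of 10 genes outside the family held CDKN1A, TP53INP1, PHLDA3, GDF15, SESN1, AEN, MDM2, ZMAT3, RPS27L and FDXR. Of these, 2 rose and 3 fell with the drug in siNT cells, and 3 rose and 3 fell in siMLK4 cells, near the 29.6% or 30.2% up and 27.7% down of all genes, with medians of -0.34 and -0.11. With doxorubicin in siNT and siMLK4 cells CDKN1A (p21) rose by 1.06 and 1.69 log2 units, TP53INP1 by 1.56 and 1.16, and PHLDA3 fell by 0.98 and 0.91 and ZMAT3 by 0.55 and 0.71. MDM2, a ubiquitin ligase, fell by 0.40 in siNT cells and was at -0.15 in siMLK4 cells (limma, adjusted p = 0.32). RPS27L was at -0.48 in siNT cells (adjusted p = 0.056) and fell by 0.74 in siMLK4 cells, while AEN rose by 0.36 in siMLK4 cells and was at 0.10 in siNT cells (adjusted p = 0.45). TP53INP1, a stress-induced protein that acts in autophagy, was also higher after knock-down, by 1.38 ± 0.13 in vehicle (limma, adjusted p = 8.1e-06) and by 0.98 ± 0.13 with doxorubicin. CDKN1A was lower after knock-down in vehicle by -0.84, from 3465, 2005 and 2657 to 1257, 1436 and 1715 normalized reads. GDF15 was lower by -1.82 ± 0.55 with overlapping groups (limma, adjusted p = 0.026), and by -1.23 with an adjusted p of 0.11 without siNT vehicle replicate 1. SESN1 was higher after knock-down by 0.80 in vehicle and 0.55 with doxorubicin, and AEN was lower by -0.67 and -0.41.

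The genes whose deposited values followed each member most closely over the 12 libraries were sought among 11056 others. BMF was closest to GLCCI1 (Pearson r = 0.984) and SKIDA1 (0.983), BCL2L11 was close to RIC8B (0.989), and PMAIP1 to CDKN1A (0.989) and C1GALT1 (0.986). BAK1 was closest to BPNT1 (0.988) and STARD3NL (0.985), BID to SSR2 (0.967), and BAX to CD47 (0.966) and NANS (0.959). BCL2 followed CAMKK2 (0.958), MCL1 followed ZNF131 (0.93) and TMEM30A (0.92), BBC3 followed MTHFD2 (0.924) and CARS1 (0.911), and BCL2L1 followed NUPR1 (0.908) and SANBR (0.899). These are descriptions over libraries that share their group structure. Within the family, BCL2L11 and BID had the most negative coefficient, -0.87, and PMAIP1 and BAK1 had -0.81.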

How the data were processed

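Poly(A) RNA was sequenced as paired ends. Per the study's methods and the submitters' processing notes, the authors trimmed reads with Trimmomatic 0.39, aligned them with HISAT2, counted them by strand with HTSeq 0.6.0 and applied the variance-stabilising transformation of DESeq2 1.26.0. The notes name hg19 and the methods GRCh38, and gene models and coordinates here are GENCODE release 44 on GRCh38. The deposited values are on a log2 scale. Inverting the transformation gave whole reads within 0.05 for 100% of values, and size factors of 0.852 to 1.199. Members and lists were chosen with earlier results of these data known.

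All 17013 genes were fitted to the deposited log2 values with limma 3.58.1 (R 4.3.3), with 4 group means, a variance trend and Benjamini-Hochberg adjustment; the fit was checked on simulated data. All 10 members were named, and from each list up to 3 genes of largest change per comparison, some of which are not reported here; CFLAR, TNFRSF10B, CRADD, MDM2, ZMAT3, RPS27L, FDXR, DYNLL2 and MIR4435-2HG were named after their values were seen. Same-numbered libraries deviated together in siNT vehicle and doxorubicin (r = 0.58, 0.13 and 0.24) and in both doxorubicin groups (0.28, 0.65 and 0.62). Signs were mixed between siMLK4 vehicle and doxorubicin (-0.10, 0.27 and 0.44) and between the vehicle groups (-0.84, 0.46 and -0.62). Pairing by replicate number comes from the data, not the labels. Other scalings, offsets of 1 and 10 reads, a filter of 10 reads, limma-voom, no trend, only the groups compared, the replicate block, the stricter rule and leaving out each library were tried.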

Additional observations from a re-analysis of the deposited data

How the results depend on the processing

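Precision is limited by 3 libraries per group. BBC3 and BCL2 had the fewest normalized reads of the members, 51.02 and 177.3 on average. In the shared fit each member has 1 SE for all 4 comparisons, which was 0.21 for BBC3 and 0.16 for BCL2. Those of the other members ran from 0.10 for MCL1 to 0.19 for PMAIP1. The part of read number in these SEs was not tested. BMF kept its direction and its call in all 4 comparisons under each of the 22 alternatives, as did BCL2L11, PMAIP1 and BAK1 for doxorubicin in siNT cells. Of the members' values under the alternatives, 1004 kept both direction and side of the threshold, 46 lost a call, 23 gained one and 17 changed sign without a call on either side. Causes were not tested.

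The count of 6 members changed by doxorubicin in siNT cells ranged from 4 to 6 when single libraries were left out, reaching 4 if siNT doxorubicin replicate 2 or the first siNT vehicle library was dropped, and was 5 under library totals (4 higher, 1 lower) and 4 under the stricter rule. The count of 5 members changed by doxorubicin in siMLK4 cells became 8 under library totals and 3 under the stricter rule, and ranged from 5 to 7 when single libraries were left out, where BCL2 or BAX or both gained a call. It was 7 if siNT vehicle replicate 1 or 3 was dropped. The count of 5 changed by knock-down in vehicle became 2 under library totals, 2 with only the groups compared and 1 under the stricter rule, and ranged from 1 to 5 when single libraries were left out. It was 1 without siMLK4 vehicle replicate 2, and 2 without siMLK4 vehicle replicate 1, siNT vehicle replicate 1 or siNT vehicle replicate 3. The count of 1 changed by knock-down with doxorubicin became 3 under library totals, 2 with only the groups compared and 2 with the replicate block, and ranged from 1 to 3 without single libraries (3 without siMLK4 vehicle replicate 3). The block added BCL2L11 there and changed no other call of a member.

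Under library totals BCL2 and BCL2L1 turned to 0.14 and 0.05 for doxorubicin in siNT cells and BAX to 0.03 for knock-down with doxorubicin. With single libraries left out, values crossed 0 for BCL2 (-0.16 to 0.08) and BAX (-0.05 to 0.25) for doxorubicin in siNT cells, and for BCL2L1 (-0.05 to 0.13) and BAK1 (-0.04 to 0.11) for knock-down in vehicle. For knock-down with doxorubicin they crossed 0 for MCL1 (-0.05 to 0.05), BAX (-0.14 to 0.06), BCL2 (-0.19 to 0.07), BCL2L1 (-0.05 to 0.12) and BBC3 (-0.06 to 0.17), and for the interaction for BID (-0.24 to 0.09), BCL2L11 (-0.30 to 0.08) and BCL2L1 (-0.11 to 0.09 around 0.00).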
